A study of Homo sapiens with 4 samples.

Results

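FOXK2 peaks near 10 genes of canonical Wnt signalling were examined in OVCAR-5 cells: the co-receptor gene LRP6, the Dishevelled genes DVL1, DVL2 and DVL3, the scaffold genes AXIN1 and AXIN2, CTNNB1, which encodes β-catenin, and the nuclear factor genes TCF7L1, TCF7L2 and LEF1. A peak was counted for one of these genes when the deposited annotation, which names the gene with the nearest transcription start site (TSS), gave that symbol. By this rule the genes held 12 of the 12471 peaks of replicate 1 and 20 of the 27281 peaks of replicate 2. OVCAR-5 is an established line of high grade serous ovarian cancer derived from ascites. Cells at passage 4-6, with no genotype or treatment named, were cross-linked and immunoprecipitated with an antibody to FOXK2, a forkhead transcription factor, in biological duplicate. Each replicate also had an input library, which was not analysed here. All values therefore describe a single condition in 1 cell line, and no test between conditions was possible.

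In canonical Wnt signalling, a Wnt ligand joins a Frizzled receptor to LRP5 or LRP6, and a Dishevelled protein is recruited to the receptors at the membrane. AXIN1 or AXIN2 scaffolds the destruction complex, in which APC and the kinases GSK3 and CK1 mark β-catenin for degradation, and the signal stops this. β-Catenin then enters the nucleus and acts with TCF and LEF proteins at target genes, of which AXIN2 is a classic one.

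The peaks were not spread over the pathway evenly. TCF7L2 carried 5 peaks in replicate 1 and 9 in replicate 2, CTNNB1 carried 4 and 6, and AXIN1 carried 2 and 2. LRP6 had 2 peaks and AXIN2 had 1 peak in replicate 2 alone, and TCF7L1 had 1 peak in replicate 1 alone. DVL1, DVL2, DVL3 and LEF1 had no peak assigned in either replicate. Thus 3 of the 10 genes had a peak in both replicates, where 28.6% of the 20037 protein-coding genes of the reference did, so their number is near that background. The same 3 genes had peaks that overlapped between replicates (25.5% of protein-coding genes), and AXIN1 and TCF7L2 had a promoter peak in both (9.31%). Counted by replicate, 4 of the 10 genes had a peak in replicate 1 (31.3% of protein-coding genes) and 5 had one in replicate 2 (51.7%), and the 4 genes with none compare with 45.6% of protein-coding genes.

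**Figure D1:**
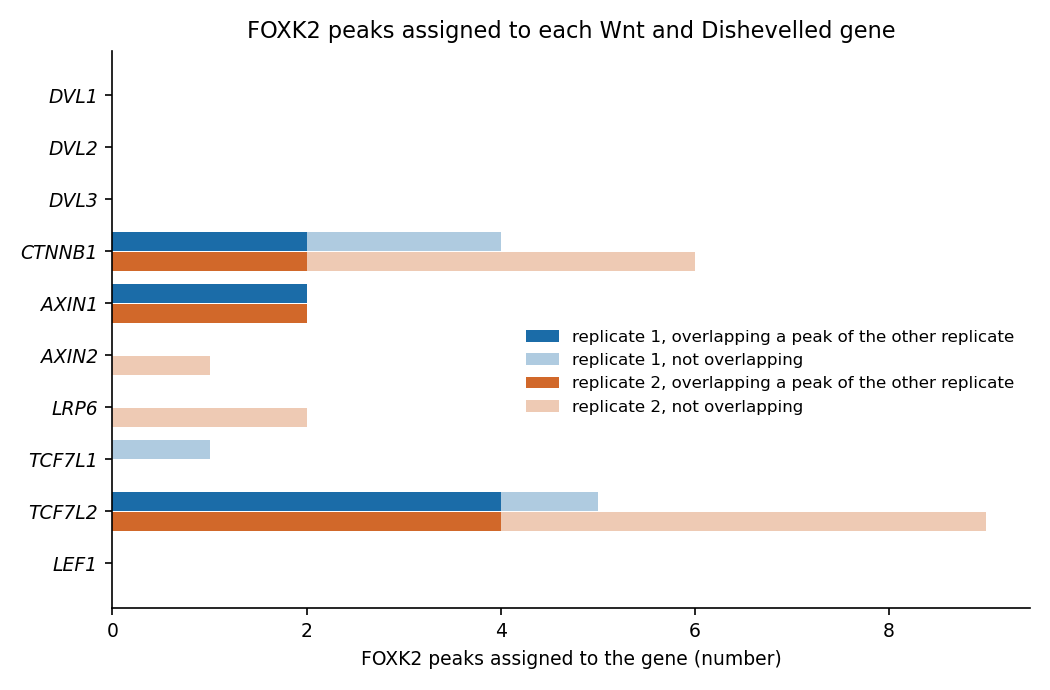
Number of FOXK2 peaks assigned to each of the 10 genes in replicate 1 (blue) and replicate 2 (orange). Dark bars are peaks that overlapped a peak of the other replicate and pale bars are those that did not. TCF7L2 and CTNNB1 hold most peaks, all peaks of AXIN1 overlapped, and DVL1, DVL2, DVL3 and LEF1 have no bar.

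Longer genes can hold more peaks, and the members differ in length. None of the 3 members under 20000 bp, which are the Dishevelled genes, had a peak in both replicates (19.2% of protein-coding genes of that length did). Of the 3 members from 20000 to 100000 bp, CTNNB1 and AXIN1 did and AXIN2 did not (31.4%). Of the 4 members of 100000 bp or more, TCF7L2 did and LRP6, TCF7L1 and LEF1 did not (47.6%). Few genes of its length class had as many peaks as TCF7L2, the member with the most. Of the 3356 genes of 100000 bp or more, 2.38% had at least 5 peaks in replicate 1 and 1.88% had at least 9 in replicate 2. For CTNNB1, 0.810% of the 7658 genes from 20000 to 100000 bp had at least 4 peaks in replicate 1 and 1.15% had at least 6 in replicate 2. Most CTNNB1 peaks lay outside the gene, and TCF7L2 peaks of replicate 2 lay beyond its end, 167612 and 196700 bp downstream of the nearest start. The counts of both genes therefore also depend on how far the neighbouring starts are, which the length classes do not match.

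Sequences of 6 peaks are shown because the description below turns on them: the strongest peak of the set, in a TCF7L2 intron, and the TCF7L2 promoter peak; the AXIN1 promoter peak; the LRP6 promoter peak, found in replicate 2 alone; and peaks inside LEF1 and TCF7L1 that the annotation gave to neighbouring genes. They were read from the plus strand of hg38, 5′ to 3′, and hold the stretch common to both replicates (for LRP6, the bases around its motif). Capitals mark 2 kinds of motif searched on both strands: the forkhead core, a heptamer of T, then G or A, then TTT, then G or A, then C or T, which includes the forkhead heptamer TGTTTAC, and the AP-1 site TGANTCA. A motif on the minus strand appears as its reverse complement, so GTAAACA stands for TGTTTAC and GCAAACA for TGTTTGC. The AXIN1 stretch holds no such match.
TCF7L2 intron 5, chr10:113087465-113087675: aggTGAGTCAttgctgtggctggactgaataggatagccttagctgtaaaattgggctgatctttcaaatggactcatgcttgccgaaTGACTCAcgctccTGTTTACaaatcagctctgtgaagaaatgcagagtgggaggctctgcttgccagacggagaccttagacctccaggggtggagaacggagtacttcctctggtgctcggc
TCF7L2 promoter, chr10:112950049-112950239: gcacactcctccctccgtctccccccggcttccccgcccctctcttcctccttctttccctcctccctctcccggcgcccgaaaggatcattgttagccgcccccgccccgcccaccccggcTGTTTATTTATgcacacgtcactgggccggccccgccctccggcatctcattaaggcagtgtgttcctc
AXIN1 promoter, chr16:353040-353203: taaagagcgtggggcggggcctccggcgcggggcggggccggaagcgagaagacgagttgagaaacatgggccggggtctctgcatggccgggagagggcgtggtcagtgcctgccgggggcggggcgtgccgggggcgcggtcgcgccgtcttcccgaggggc
LRP6 promoter, chr12:12267521-12267607: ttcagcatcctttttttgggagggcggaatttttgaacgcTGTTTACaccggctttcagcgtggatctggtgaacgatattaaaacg
LEF1 intron 9, chr4:108058765-108058975: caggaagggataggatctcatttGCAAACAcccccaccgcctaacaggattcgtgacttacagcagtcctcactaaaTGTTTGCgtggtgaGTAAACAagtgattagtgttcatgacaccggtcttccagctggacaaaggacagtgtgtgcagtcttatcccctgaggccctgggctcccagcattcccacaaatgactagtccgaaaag
TCF7L1 intron 3, chr2:85274562-85274735: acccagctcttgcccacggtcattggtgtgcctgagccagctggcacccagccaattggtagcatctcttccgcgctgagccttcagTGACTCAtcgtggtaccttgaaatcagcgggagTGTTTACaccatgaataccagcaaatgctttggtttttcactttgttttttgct

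Each peak carries a HOMER peak score, and the low scores of a list lie close to whole multiples of one step. Below a score of 10, where the files print 2 decimals, no peak lay more than 0.0266 steps from a whole number in replicate 1 or 0.0344 in replicate 2. These were 84.7% and 71.3% of peaks. Over all peaks the largest deviation was 0.266 and 0.374 steps, where up to 0.4 was accepted as whole. If HOMER scaled each library to 10000000 tags, as it does by default, 1 step is 1 tag, and the scores are given here with the number of tags they then stand for. The steps imply about 53000000 tags in replicate 1 and 67200000 in replicate 2, and the weakest listed peak held 16 and 21 tags. Intervals of tag numbers rest on this scaling and cover counting error only. Since the lists differ in length, depth and peak width (210 and 256 bp), a score was placed only within its own list, by its percentile, the percentage of peaks with a lower score.

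The co-receptor LRP6 binds Wnt together with Frizzled at the cell surface. Its gene had no peak in replicate 1. In replicate 2 a promoter peak at chr12:12267389-12267645, 640 bp upstream of the TSS, scored 9.96 (67 tags, percentile 70.3). This was the one promoter peak among the members that held TGTTTAC, 47 bp from the peak centre. A weaker LRP6 peak in an L2 LINE element of an intron, 50374 bp downstream, scored 5.35 (percentile 25.6). The nearest replicate 1 peak to the LRP6 start lay 131 kb away and was assigned to BORCS5, so the promoter peak had no counterpart nearby.

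Dishevelled proteins relay the signal from the receptors to the destruction complex, and no peak lay inside any of their 3 genes. The nearest peaks belonged to neighbours. For DVL1 they lay 26.1 kb from the gene start in replicate 1, at the AURKAIP1 promoter (score 5.09, percentile 32.7), and 11.5 kb in replicate 2, in an intron of MXRA8 (score 4.76, percentile 17.1), and these did not overlap. For DVL2 a peak at the GABARAP promoter, 8.46 kb upstream of the DVL2 start, was found in both replicates with scores of 5.28 and 7.29 (28 and 49 tags, percentiles 36.9 and 49.3). GABARAP encodes an autophagy protein of the ATG8 family. For DVL3 a peak in intron 1 of AP2M1, which encodes a subunit of the clathrin adaptor AP-2, lay 21.4 kb downstream of the DVL3 start and was also in both replicates, with scores of 6.41 and 17.3 (34 and 116 tags, percentiles 56.1 and 91.1). Closer to the DVL3 start, at 19971 and 21109 bp, were peaks at EIF2B5 that did not overlap between replicates. The Dishevelled genes thus had peaks in their neighbourhoods, and those that recurred sat at the neighbouring genes' own promoters or first introns.

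AXIN1, the scaffold of the destruction complex, had the same 2 peaks in both replicates. The promoter peak, chr16:353040-353250 in replicate 1 and chr16:352947-353203 in replicate 2, was centred 469 and 399 bp upstream of the TSS. It scored 10.2 in replicate 1 (54 tags, percentile 85.3) and 16.4 in replicate 2 (110 tags, percentile 89.9). The second peak, in intron 2 of 9, scored 10.8 (57 tags, percentile 87.3) and 20.5 (138 tags, percentile 94.6). Both AXIN1 peaks therefore stood in the upper part of each list, and the intron peak was the higher in each. Neither AXIN1 peak held a forkhead core, AP-1 site or TCF/LEF site CTTTGAT within 100 bp of its centre in either replicate. This says only that these letters are not in those windows.

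AXIN2, a homologous scaffold that Wnt signalling itself induces, had 1 intergenic peak in replicate 2, 26921 bp upstream of its TSS, with a score of 5.06 (34 tags, percentile 21.1). It held the forkhead heptamer TGTTTAT and, of all the member peaks, the one match to CTTTGAT. The nearest replicate 1 peak to it was 196514 bp away. AXIN1 and AXIN2 thus differed in number, score and recurrence of their peaks in these lists.

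CTNNB1 encodes β-catenin, the transcriptional co-activator that the destruction complex degrades. It had many peaks, but all peaks of replicate 1 scored below the median of that list. A peak in intron 1 of 15, about 3700 bp downstream of the TSS, was found at chr3:41203046-41203256 with a score of 4.72 (25 tags, percentile 24.4) and at chr3:41203036-41203292 with a score of 8.33 (56 tags, percentile 58.9). An intergenic peak 35890 bp upstream in replicate 1 and 35753 bp upstream in replicate 2 scored 4.72 (percentile 24.4) and 7.58 (51 tags, percentile 52.1), with 96 bp in common. No CTNNB1 peak was classed as promoter. The highest CTNNB1 score, 14.6 in replicate 2 (98 tags, percentile 86.8), belonged to an intergenic peak 227483 bp upstream, and the replicate 1 peak beside it, with a score of 5.66 (percentile 44.2), missed it by 69 bp. These 2 were counted as not overlapping. The remaining CTNNB1 peaks were found in 1 replicate each. In replicate 1 a peak in an LTR16A2 element 61354 bp upstream scored 3.96 (percentile 5.38) and held TGTTTAC. In replicate 2 peaks 81826 and 259547 bp upstream scored 9.07 and 5.21, and a peak in a MER20 element 68714 bp downstream scored 7.29 (percentile 49.3). Of the 6 CTNNB1 peaks of replicate 2, 1 lay within the gene.

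TCF7L2, a nuclear partner of β-catenin that binds Wnt target genes, held the strongest peak of the set. This peak lay in intron 5 of 12 of the transcript the annotation names, at chr10:113087465-113087675 in replicate 1 and chr10:113087446-113087702 in replicate 2. It scored 19.2 in replicate 1 (102 tags, Poisson 95% interval 83.2 to 124) and 45.8 in replicate 2 (308 tags, 275 to 344). It ranked 317 of 12471 (percentile 97.4) and 191 of 27281 (percentile 99.3), so it was among the strongest peaks of both lists. Its focus ratio, the fraction of tags on the expected side of the centre, was 0.865 and 0.889. The sequence printed above has TGTTTAC at chr10:113087566-113087572, 1 bp from the peak centre in replicate 1 and 5 bp in replicate 2, and an AP-1 site with 6 bases between the 2 motifs. A further AP-1 match stands at the left end of the printed stretch. Peaks that held TGTTTAC and TGANTCA with at most 10 bases between them made up 1.01% of replicate 1 and 0.869% of replicate 2, and 15 and 26 of them had the same number of bases between. Among the 322 and 193 peaks that scored at least as high, 64.0% and 63.2% held TGTTTAC and 12.7% and 10.9% held both motifs, where 5.91% and 4.88% of the whole lists held both.

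The TCF7L2 promoter peak was also found in both replicates, at chr10:112950029-112950239 and chr10:112950049-112950305, centred 116 and 73 bp upstream of the TSS. It scored 8.68 (46 tags, percentile 77.5) and 19.3 (130 tags, percentile 93.6). Its forkhead matches are the overlapping heptamers TGTTTAT and TATTTAT near the centre, as the printed sequence shows. Farther downstream in the gene, a pair of other intron peaks was found in both replicates: one with 69 bp in common, at scores of 5.28 and 15.6 (28 and 105 tags), and one at scores of 6.79 and 14.1 (36 and 95 tags). Upstream of the strongest peak, the annotation gave 2 more recurring peaks within TCF7L2 to SNORA87, a small nucleolar RNA gene, with scores of 5.85 and 11.5 for the first and 8.49 and 7.29 for the second. The introns of TCF7L2 thus held 5 pairs of overlapping peaks, 3 assigned to TCF7L2 and 2 to SNORA87. An exon at chr10:113089400-113089540 separates 3 of the pairs, the strongest included, from the other 2 downstream, and 2 of the 13 GENCODE transcripts that span all the pairs contain it. Peaks of TCF7L2 found in replicate 2 alone included one at the promoter of an internal start (score 7.44, percentile 50.7), one 6004 bp downstream of the first start (8.03) and one in an intron (4.91), and the other 2, downstream of the gene, both scored 4.02. In replicate 1 alone a peak 2217 bp downstream of the internal start scored 4.15 (percentile 9.70).

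**Figure D2:**
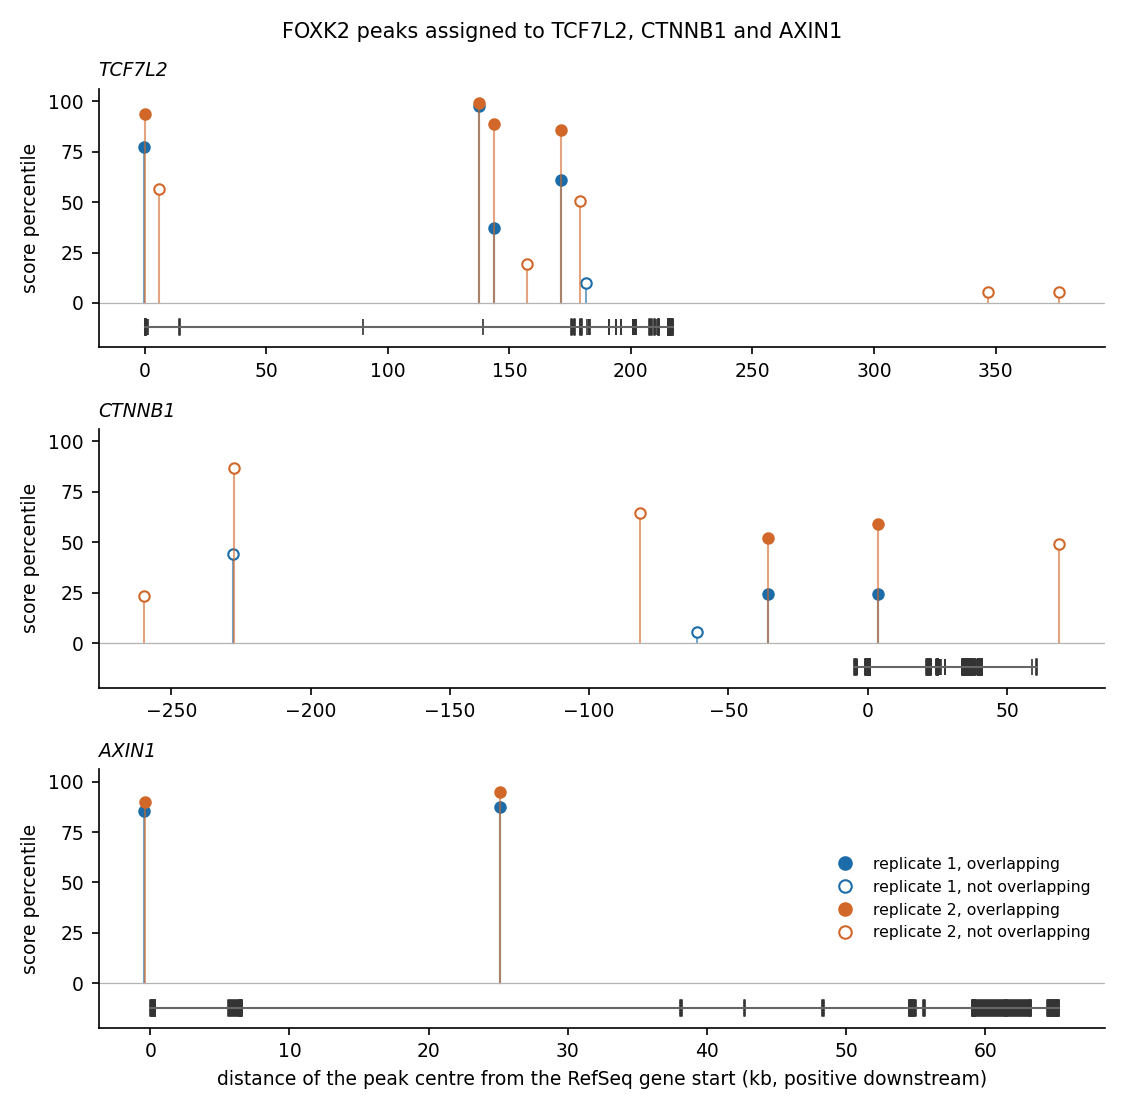
Positions of FOXK2 peaks assigned to TCF7L2, CTNNB1 and AXIN1, in kb from the RefSeq gene start with downstream positive. Stem height is the score percentile within the replicate's own list, filled points overlapped a peak of the other replicate, open points did not, and the line with boxes below shows the gene and its annotated exons. TCF7L2 and AXIN1 have high filled points at the start and within the gene, while most CTNNB1 points lie upstream of the gene.

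TCF7L1, which represses Wnt targets in the absence of signal, had 1 assigned peak, in replicate 1, 17069 bp upstream of its TSS with a score of 4.15 (22 tags, percentile 9.70). The gene itself was not free of peaks. In its intron 3 of 11, in a MER63A DNA transposon, a peak assigned to TGOLN2 was found in both replicates with scores of 4.34 (23 tags, percentile 14.6) and 6.54 (44 tags, percentile 41.1), and the printed stretch holds TGTTTAC and an AP-1 site. TGOLN2 encodes a trans-Golgi network protein and its annotated start lay 53.7 kb from this peak. Replicate 2 had 3 further peaks within TCF7L1, also assigned to other genes, with scores of 5.80, 6.84 and 7.14.

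LEF1, the lymphoid enhancer factor that binds DNA with β-catenin, had no peak by the assignment rule, yet its last intron, 9 of 9, held one in both replicates. The peak lay at chr4:108058765-108058975 and chr4:108058745-108059001, 110 kb downstream of the LEF1 start and 54.2 kb from the start of HADH, a gene of mitochondrial fatty acid oxidation to which the files assign it. It scored 5.47 in replicate 1 (29 tags, percentile 40.9) and 13.1 in replicate 2 (88 tags, percentile 83.2). Its printed stretch has 3 forkhead cores, one of them TGTTTAC. Upstream, a peak assigned to the antisense gene LEF1-AS1 lay 78.9 kb from the LEF1 start in replicate 1 and 79.0 kb in replicate 2, with scores of 5.28 and 7.29 (percentiles 36.9 and 49.3), and it was the nearest peak to that start.

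When peaks were counted by position instead, in the gene or within 10000 bp of it whatever the assigned gene, 7 of the 10 genes had one in both replicates, against 36.0% of protein-coding genes. This share rises with gene length: it was 26.3% under 20000 bp, where 2 of 3 members had such peaks, 38.1% from 20000 to 100000 bp, where 2 of 3 did, and 57.5% at 100000 bp or more, where 3 of 4 did. The 4 genes added were DVL2, DVL3, TCF7L1 and LEF1, whose recurring peaks all carried a neighbour's name. For DVL2 and DVL3 these peaks lay outside the gene, and for TCF7L1 and LEF1 in an intron. DVL1 and AXIN2 had no such peak in either replicate, and LRP6 had none in replicate 1. In replicate 2, peaks under other genes' names also lay within LRP6 (score 3.87) and AXIN1 (5.21). Measured from the RefSeq gene start, which can differ from the TSS of the files' annotation used above, the distance to the nearest peak, for any assigned gene, ranged from 113 bp at TCF7L2 to 199 kb at AXIN2 in replicate 1 and from 70 bp at TCF7L2 to 79.0 kb at LEF1 in replicate 2. The median over 19110 genes was 45.1 kb in replicate 1 and 14.2 kb in replicate 2.

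**Figure D3:**
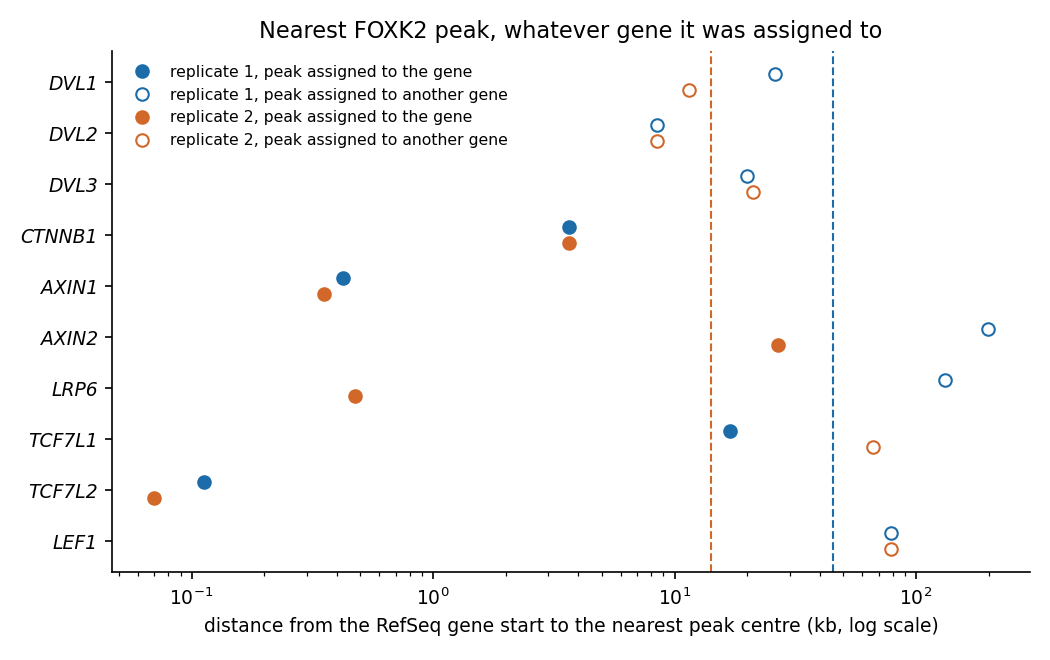
Distance in kb, on a log axis, from each gene's RefSeq start to the nearest FOXK2 peak centre in replicate 1 (blue) and replicate 2 (orange). Filled points are peaks assigned to the gene, open points are peaks assigned to another gene, and the dashed lines mark the medians over 19110 genes of 45.1 kb and 14.2 kb. TCF7L2, AXIN1 and CTNNB1 have filled points close to the start in both replicates, and the Dishevelled genes and LEF1 have open points only.

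Of the member peaks, 8 of 12 in replicate 1 (66.7%, Wilson 95% interval 39.1% to 86.2%) and 8 of 20 in replicate 2 (21.9% to 61.3%) overlapped a peak of the other replicate by at least 1 bp, against 74.9% and 34.2% of all peaks. The intervals cover counting error only and hold both background values. Peaks that recurred were the higher ones by their median, though not each of them stood above every peak without a partner. Their median percentile was 69.1 in replicate 1 and 89.4 in replicate 2, against 9.70 and 37.4 for the 4 and 12 member peaks without a partner. Over all peaks the corresponding medians were 58.6 and 77.6 with a partner and 24.4 and 33.9 without, so the same order held in the whole lists. Centres of the 8 member pairs lay a median of 39 bp apart, against 29 bp over all 9343 pairs.

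**Figure D4:**
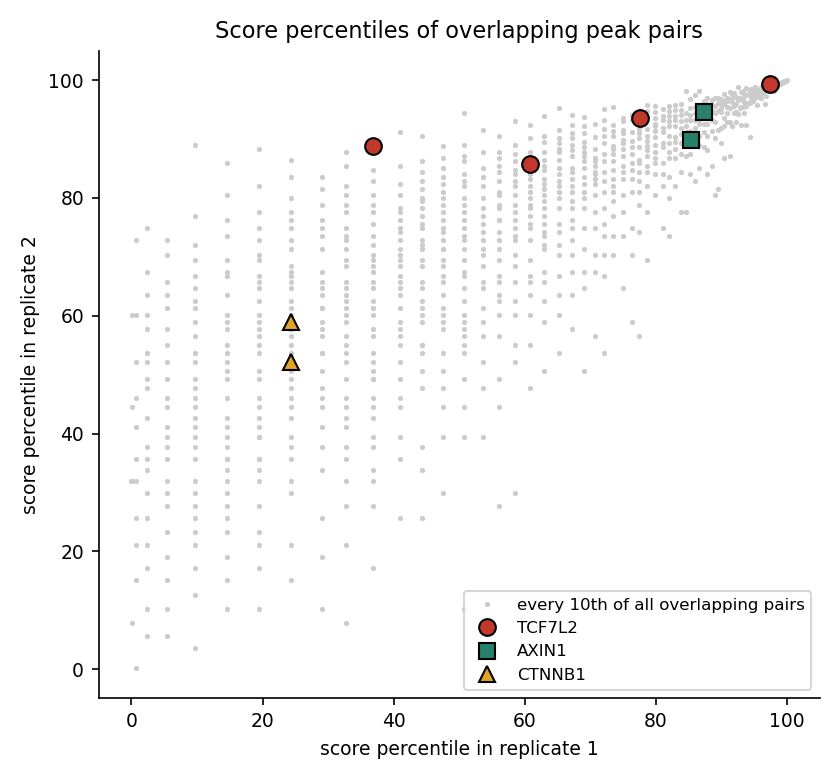
Score percentile in replicate 1 (x axis) and in replicate 2 (y axis) of the 8 overlapping pairs assigned to TCF7L2, AXIN1 and CTNNB1, over every 10th of all overlapping pairs in grey. The TCF7L2 intron 5 pair stands at 97.4 and 99.3, both AXIN1 pairs above 85 in each replicate, and both CTNNB1 pairs at 24.4 in replicate 1.

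With 100 bp searched to each side of the centre, the forkhead heptamer TGTTTAC was in 2 of 12 member peaks in replicate 1 (16.7%, Wilson 95% interval 4.70% to 44.8%, all peaks 30.5%) and 3 of 20 in replicate 2 (15.0%, 5.24% to 36.0%, all peaks 28.2%). The forkhead core was in 6 of 12 (25.4% to 74.6%, all peaks 57.9%) and 9 of 20 (25.8% to 65.8%, all peaks 56.9%). TGANTCA was in 2 of 12 (all peaks 20.8%) and 5 of 20 (all peaks 21.0%), and CTTTGAT, the site of TCF and LEF proteins, in 0 of 12 (all peaks 3.16%) and 1 of 20 (all peaks 3.22%). These numbers are too small to place the members apart from the lists. Of the 8 recurring pairs, 4 had no forkhead core near the centre in either replicate. These were the AXIN1 promoter and intron pairs, the CTNNB1 intron pair and a TCF7L2 intron pair. In the RefSeq promoter windows, from 250 bases before to 50 after a start, TGTTTAC was in none of the 10 windows of 8 members, while 3.42% of all 35116 windows held it. No window was at hand for AXIN2 or for LRP6, whose promoter peak held TGTTTAC. The core was in 2 of the 10, both of TCF7L2, and in 24.3% of all windows.

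Around the 10 genes, 109 other Wnt pathway genes in 9 lists were counted in the same way. A peak in both replicates was assigned to 40 of them (36.7%, all protein-coding genes 28.6%), and overlapping peaks to 31 (28.4%, all protein-coding genes 25.5%). A promoter peak in both replicates was assigned to 8 of the 109, a smaller share than the 9.31% of all protein-coding genes. By role, the counts of genes with a peak in both replicates were 3 of 19 Wnt ligands, 1 of 2 secretion genes, 6 of 15 Frizzled and co-receptor genes, 2 of 9 genes of R-spondin and receptor turnover, and 5 of 14 secreted inhibitors. Inside the cell they were 6 of 18 for the destruction complex and its partners, 10 of 14 for nuclear partners, 4 of 9 for the planar polarity branch and 3 of 9 for common target genes. Overlapping peaks were assigned to 9 of the 14 nuclear partners, a list that holds β-catenin co-activators such as BCL9L as well as co-repressors and inhibitors such as TLE1 and HBP1, and to 1 of the 14 secreted inhibitors. The genes of these 2 lists differ in length, with medians of 50.1 kb and 14.1 kb (24.1 kb over all protein-coding genes), and the part of length in their counts was not tested.

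Of these neighbours in the pathway, HBP1, FRAT2 and FRAT1 had peaks higher in both lists than any member. The best peaks of the other genes named here scored below the strongest member peak in both lists. HBP1, an HMG-box repressor of TCF targets, had a promoter peak that ranked 5 and 14 in the lists of replicates 1 and 2, with scores of 61.1 and 104.7. FRAT2 and FRAT1, which encode GSK3-binding proteins, had promoter peaks with scores of 29.6 and 62.2 for FRAT2 and 26.2 and 58.7 for FRAT1. These 3 promoter peaks held TGTTTAC, unlike the promoter peaks of AXIN1 and TCF7L2. Above the TCF7L2 promoter peak in both lists also stood peaks of MYC, a target of TCF7L2 (14.0 and 35.7), and of BCL9L, a β-catenin co-activator (13.2 and 20.8). DAAM1, a formin that binds Dishevelled, had its best peak in an intron (16.2 and 34.4), and VANGL1, a planar polarity membrane protein, had one 95.8 kb upstream in replicate 1 (12.3 and 17.4 in the 2 replicates).

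At the receptor level, LRP5, the paralogue of LRP6, had an intron peak in both replicates 67.9 kb downstream of its start. This peak scored 9.05 and 24.7 (percentiles 79.9 and 96.7), where LRP6 had no peak in replicate 1. The best peaks of ROR1, a receptor tyrosine kinase for Wnt ligands, scored 6.98 and 11.2 (percentiles 62.9 and 76.3). Those of FZD6, a Frizzled receptor, scored 7.55 and 8.92 (percentiles 69.0 and 63.6). APC, the partner of AXIN1 in the destruction complex, had a promoter peak in both replicates. The APC peak scored 6.60 and 12.2 (percentiles 58.6 and 80.5), lower in each list than the AXIN1 promoter peak. Of the ligands WNT8A scored 6.41 and 13.4 (percentiles 56.1 and 84.0) and WNT10A 6.79 and 9.52 (60.8 and 67.5). Of the R-spondin branch LGR5, a receptor, scored 6.04 and 7.88 (percentiles 50.7 and 55.1). RSPO3, a ligand, had an intergenic peak 92.2 kb upstream that scored 4.53 and 10.1 (percentiles 19.4 and 71.3). Secreted inhibitors were represented by SOST, which binds LRP5 and LRP6, and DKK1, an LRP6 antagonist. SOST had an intergenic peak 34.8 and 34.7 kb from its start, with scores of 11.1 and 18.4 (percentiles 88.5 and 92.6). DKK1 scored 5.28 and 7.29 (percentiles 36.9 and 49.3). The best peaks of the co-repressor gene TLE1, 371 kb from its start, scored 10.6 and 16.7 (percentiles 86.5 and 90.4). Of the target genes, TNFRSF19 scored 6.41 and 10.1 (percentiles 56.1 and 71.3) and PPARD 4.90 and 9.96 (29.0 and 70.3). WNT8A, PPARD and DKK1 had their best peaks at different places in the 2 replicates.

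**Figure D5:**
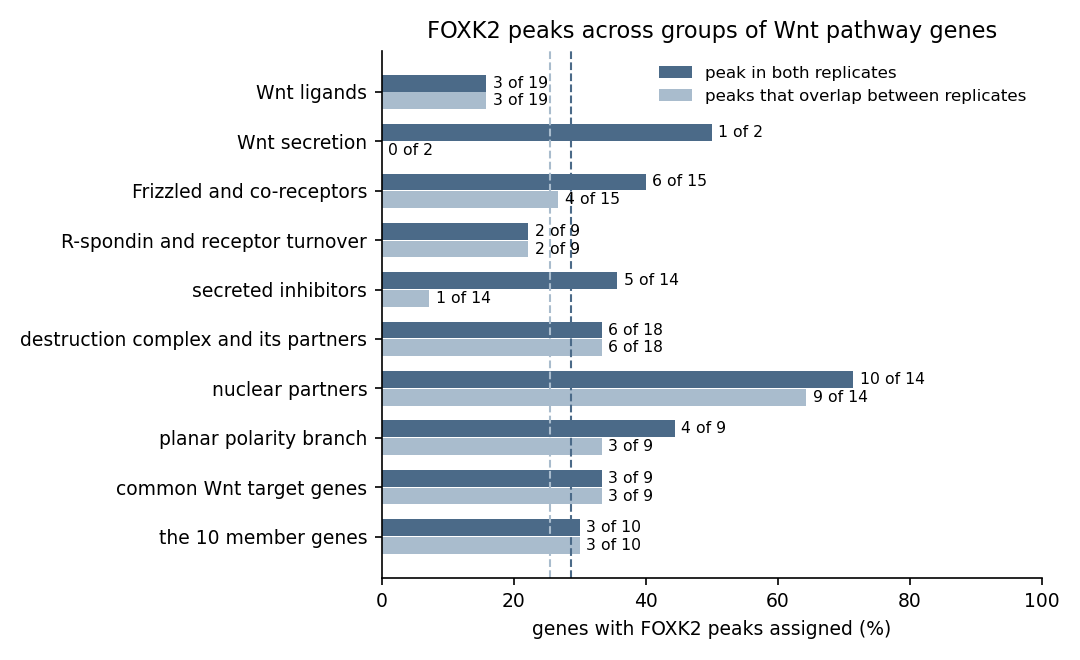
Percentage of genes in each Wnt pathway list with a FOXK2 peak in both replicates (dark bars) and with peaks that overlap between replicates (pale bars), with the number of genes at the bar ends. Dashed lines mark the shares of all protein-coding genes, 28.6% and 25.5%. The nuclear partners reach 71.4% and 64.3%, and the 10 member genes stand at 30.0% for both.

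Peaks are assigned to the nearest TSS, so an assignment does not show which gene a site acts on, and peaks of 1 gene share a locus. Expression was not analysed here, and whether the input libraries bear on any peak was not tested.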

How the data were processed

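OVCAR-5 FOXK2 ChIP-seq peak lists of 2 biological replicates were analysed as deposited. Per the submitters' processing notes and the study's methods, reads were mapped to hg38 with Bowtie2 2.2.6, and peaks were called per replicate and annotated to the nearest TSS with HOMER 4.10. The thresholds behind these per-replicate lists, and whether the input entered their calls, are not given in the sources used here. The study also computed enrichment statistics for each peak and set an FDR limit on peaks when it sought target genes. Its comparison with input is printed for the peak of a single gene. These statistics were not used here. The deposited score of each peak was scaled by the authors' HOMER run, and the deposited focus ratio is a fraction.

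The genes and pathway lists were chosen with earlier results of these data known. Each of the 10 genes is described with every peak, or, above 6 peaks in a replicate, with its recurring peaks and the 3 highest others. Of the 109 other genes, up to 3 a list and 20 in all with the highest mean percentile of their best peaks are named. The peaks inside LEF1 and TCF7L1 were singled out after their values were seen. Gene bodies came from GENCODE 44 and gene starts and promoter windows from RefSeq; 99.7% of peaks in each list matched a RefSeq gene. Promoter windows were at hand for 8 of the 10 genes, all but AXIN2 and LRP6. The overlap counts and motif search were checked on simulated data. Alternatives changed the assignment, overlap, list length, score limit and motif window, and left out each replicate. The reads, input libraries, H3K27Ac and RNA-seq data were not analysed here. Python 3.11.15, pandas 2.3.3, pysam 0.24.0, scipy 1.17.1 and samtools 1.23.1 were used.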

Additional observations from a re-analysis of the deposited data

How the results depend on the processing

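Of 40 values under alternatives, 26 stayed close to the main ones and 14 moved. The count of 3 genes with a peak in both replicates became 7 with peaks counted by position in the gene or within 10000 bp, and 6 with a peak in either replicate; leaving out a replicate gave 4 to 5. It stayed within 1.5 times under the distance limits, promoter peaks, score limit, equal list lengths and named chromosomes. The 8 overlapped member peaks of each replicate became 5 with centres within 50 bp and 5 among peaks above the median score. TGTTTAC, in 2 and 3 member peaks, was in 4 and 6 with 500 bp to each side, and the forkhead core was in 6 and 9. The counts at 500 bp have no share of all peaks beside them here. The 40 other Wnt genes became 8 with promoter peaks, a smaller share than the 9.31% of all protein-coding genes. They became 21 among peaks above the median score, a count with no share of all genes beside it here. Replicate 1 alone gave 44 (all protein-coding genes 31.3%) and replicate 2 alone gave 68 (51.7%). Each count rests on few peaks, the weakest listed peaks held 16 and 21 tags, and a gene without an assigned peak can hold one under another gene's name, as LEF1 did. No paired analysis was possible because each result is a count that comes from no test, and the input group had no values here. Where a count moved, the cause was not tested.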
